A study of Mus musculus with 48 samples.

Results

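Cytosolic ribosomal protein genes were followed in mouse brain tissue during the first week after a permanent stroke. They were chosen by name alone, though with earlier results of these data known. A gene was a member if its symbol was Rpl or Rps followed by a number, with or without a closing a, l or x, or if it was Rplp0, Rplp1, Rplp2 or Rpsa, and no measured value was used. The rule found 82 members among the 46983 genes listed. Of these, 32 carried a small-subunit name and 50 a large-subunit name, and 79 had more than 10 counts in total and were tested together with the other genes (19970 in all). The untested members were Rpl6l, an annotated processed pseudogene with 9 counts over all libraries, Rpl24 with 2 counts and Rpl10l with 1 count. The last 200 bases of Rpl24 are shared in part with 6 other genes. Reads that were not unique were not counted, so its count does not show that it is absent.

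The tissue came from 3-month-old male C57Black/6 mice. MCAO animals had the middle cerebral artery closed permanently by coagulation and transection. Sham animals had the same surgery without occlusion, and control cortex was intact. Sham and MCAO tissue was taken at 3 h, 12 h, 24 h, day 3 and day 7. There were 4 control libraries, 4 sham libraries at each time, and 5 MCAO libraries at each time except 24 h, which had 4. The methods of the study describe the samples as pieces of the injured cortical region with affected and unaffected tissue together. Its main text speaks instead of nearly an entire ipsilesional hemisphere, so the extent of the tissue is uncertain. Infarcts are small in this model. RNA was measured by QuantSeq, which reads only the polyadenylated 3′ end of each transcript, so that a count stands for a transcript and does not grow with its length. Levels are given in CPM, gene counts scaled to a common library total, with each total first multiplied by its TMM normalization factor (0.92 to 1.05).

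The cytosolic ribosome is built from ribosomal RNAs and about equimolar ribosomal proteins. The small subunit binds and decodes mRNA, and the large subunit forms the peptide bond. On its side stands the stalk, where Rplp0 holds dimers of Rplp1 and Rplp2 that recruit elongation factors. Ribosomal protein mRNAs are among the most abundant in a cell and commonly begin with a C followed by a run of pyrimidines, the 5′ terminal oligopyrimidine (TOP) tract, through which the mTOR pathway adjusts their translation together. The genes have left many processed pseudogenes in mammalian genomes, whose sequence can equal that of the parent mRNA.

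The starts of these genes were searched for a pyrimidine tract, which the rule did not use. A start was read as carrying a tract where a C was followed by at least 4 bases that are each C or T, on the transcribed strand only, within 15 bases of the annotated start. RefSeq start sequences (GRCm38.p6) matched 60 of the 82 members, and 44 of them (73.33%) held such a tract, against 12124 of all 27025 starts (44.86%). A tract of at least 8 bases stood at 27 of the 60 (45%) and at 3551 of all starts (13.14%). Shown for members that the results turn on are windows of 30 bases near a start annotated by RefSeq, each opening 8 bases before the tract, which is in capitals. Rps9, Rps12, Rps24 and Rplp0 had some of the clearest changes, Rps27 and Rps27l are paralogues, and Rpl15 was among those with the lowest mean difference.
Rps9, chr7:3704028-3704057, plus strand: cgccttgtCTCTCTTTgtctcgggcctgag
Rps12, chr10:23787180-23787209, minus strand: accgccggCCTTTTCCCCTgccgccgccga
Rps24, chr14:24490668-24490697, plus strand: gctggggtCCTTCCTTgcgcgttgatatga
Rplp0, chr5:115559472-115559501, plus strand: gcctggttCTCCTataaaaggcacacgcgg
Rps27, chr3:90213629-90213658, minus strand: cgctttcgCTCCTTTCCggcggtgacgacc
Rps27l, chr9:66946066-66946095, plus strand: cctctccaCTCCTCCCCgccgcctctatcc
Rpl15, chr14:18270969-18270998, minus strand: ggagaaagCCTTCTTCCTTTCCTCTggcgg
Rps27 and Rps27l held tracts of 9 bases each, Rpl15 one of 17 and Rplp0 one of 5. A tract in the window is a match of letters and not a measured start site. It need not begin at the RefSeq start. The offset of the tract from that start was -12 bases for Rps27l and 13 bases for Rplp0. Gene coordinates below are those of GENCODE vM21, in which a gene begins at its outermost transcript. The RefSeq start lay 0 to 66 bases inside that gene start for Rps9, Rps12, Rplp0, Rps27 and Rps27l, 405 bases inside for Rpl15 and 3553 bases inside for Rps24, and within 16 bases of a GENCODE transcript start for all 7.

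Gene counts per library ranged from 1522668 to 2826735, spike-in counts were 3.71% to 5.97% of the counts, and 24.0% to 37.3% of the alignments listed for a library were not unique and were left out of the counts. The neuronal markers Rbfox3 and Syt1 were abundant in control cortex, with mean levels of 853 and 3785 CPM. Nothing in the labels ties a library to an animal, although the main text of the study counts mice per condition for its bulk RNA sequencing. The labels' general description gives fewer hemispheres per time than there are libraries. The methods of the study describe pooled hemispheres for its samples of single nuclei and not for the bulk libraries. The p-values measure the spread between libraries, part of which may be technical. In 5 libraries the members stood apart from their own group. In sham 12 h library A, MCAO 12 h library D and sham day 7 library D many members were low, and in sham 12 h library C and MCAO 12 h library E many were high. This pattern ran along the first component of the within-group differences, which held 58.4% of the variance of the 76 members above 5 CPM. The pattern was not confined to these genes but was more frequent among them. In the 3 low libraries 274 of 7603 genes above 20 CPM were lower by more than 1 on the log2 scale. Of the 75 members above that level 12 were. The percentages of alignments that were not unique were 35.7, 34.7 and 28.8 in the 3 low libraries and 24.0 and 27.1 in the 2 high ones, and the part of this measure in the pattern was not tested. At 12 h and day 7, where they fall, medians over all members, shares and values of single members are therefore given also without them.

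**Figure D1:**
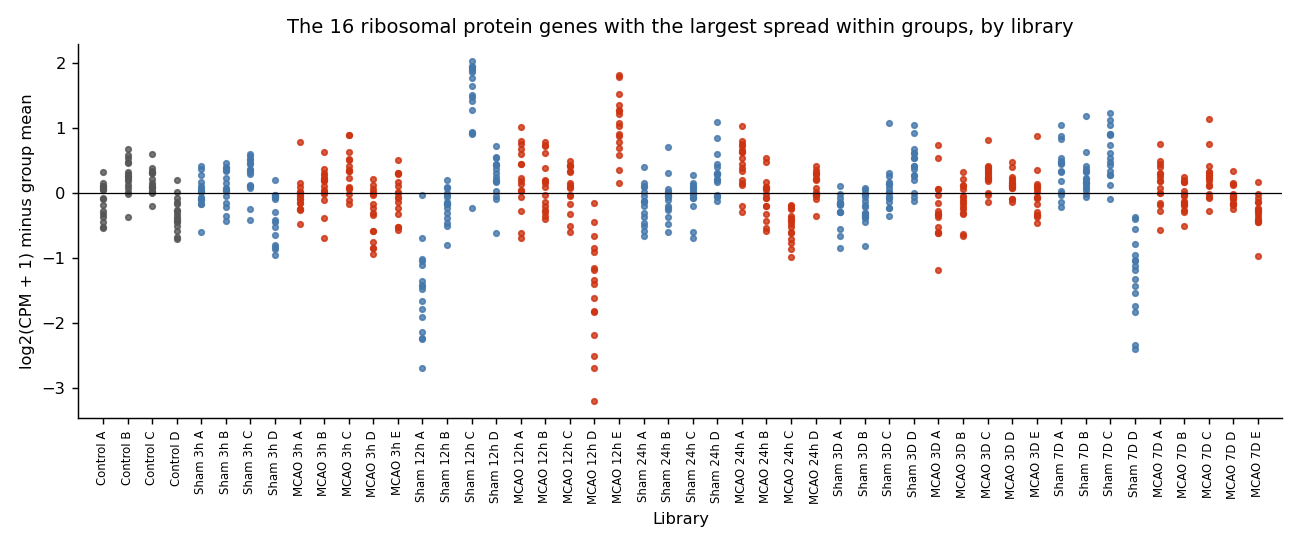
Differences from the group mean, on the log2 scale, in all 48 libraries, ordered by time. Shown are the 16 members above 5 CPM whose standard deviation within groups exceeded 0.5 on that scale. Each column is a library and each point a member, coloured by control, sham or MCAO. In the 5 libraries that stood apart many of these members lie far below or above their group mean.

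Members together took 1.38% to 2.68% of the gene counts of a library (median 1.61%). The share was near the control level at 3 h and 12 h and higher in the MCAO tissue at 24 h and day 3. In control cortex it was 1.56% ± 0.0876 (SD, n = 4). At 24 h the sham libraries A to D held 1.57, 1.39, 1.39 and 1.62% and the MCAO libraries A to D 2.29, 1.83, 1.70 and 2.01%. All 4 MCAO libraries lay above every sham library, and the means were 1.49% ± 0.119 and 1.96% ± 0.254 (SD, n = 4 each), a ratio of 1.31. At day 3 the sham libraries held 1.38, 1.41, 1.52 and 1.65% and the MCAO libraries A to E 1.60, 2.06, 2.68, 2.12 and 2.41%. Of the 5 MCAO libraries, B to E lay above every sham library and A did not. The means were 1.49% ± 0.125 (SD, n = 4) and 2.17% ± 0.403 (SD, n = 5), a ratio of 1.46. At day 7 the sham libraries held 1.55, 1.86, 1.70 and 1.55% and the MCAO libraries 1.74, 1.85, 2.38, 1.69 and 1.60%. There the groups overlapped except for library C, and the ratio of the means was 1.11. At 3 h and 12 h the ratios were 1.06 and 1.08, with 1 of 5 and 2 of 5 MCAO libraries above every sham library. Without the libraries that stood apart the ratio was 1.13 at 12 h, with all 3 remaining MCAO libraries above both remaining sham libraries, and 1.09 at day 7. The share is given without a test. In bulk tissue, more cells that express these genes and more of their mRNA per cell cannot be told apart.

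**Figure D2:**
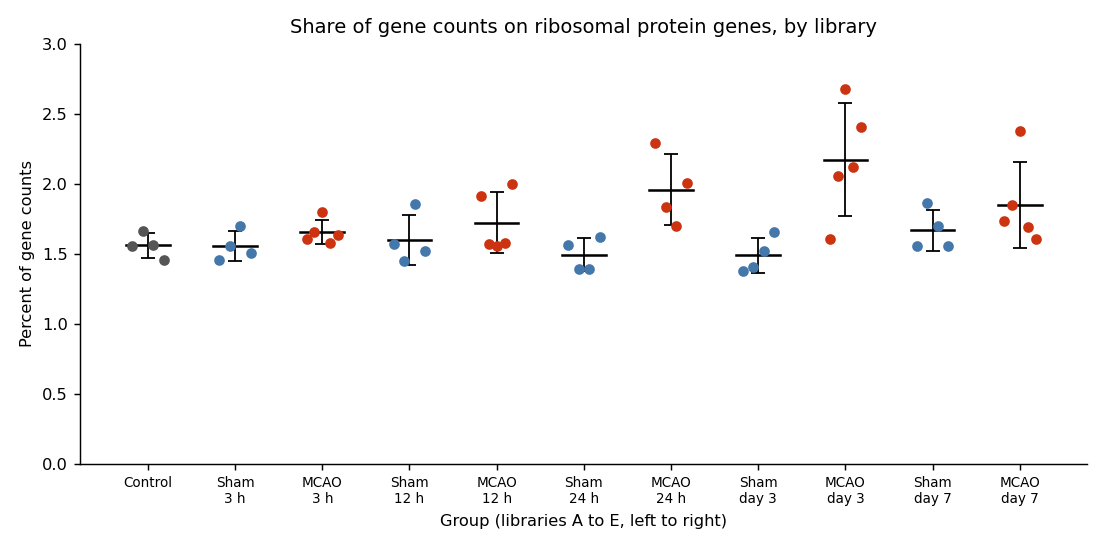
Share of gene counts (percent) taken by the 82 members in each library, by time. Points are libraries, bars are the mean and the whiskers the SD of each group. MCAO lies above sham in every library at 24 h and in 4 of 5 libraries at day 3.

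Without Rplp1, the most abundant member, the day 3 means were 1.38% ± 0.115 in sham and 2.01% ± 0.382 in MCAO. Set against the spike-in counts in place of the gene counts, members had 0.308 ± 0.0209 counts per spike-in count in sham and 0.431 ± 0.0458 in MCAO at 24 h (SD, n = 4 each). At day 3 these values were 0.337 ± 0.0247 (SD, n = 4) and 0.395 ± 0.0318 (SD, n = 5), a smaller difference than in the share of gene counts. At 3 h they were 0.364 and 0.365, and at 12 h 0.340 and 0.337.

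Each gene was then tested with edgeR in a single fit of all 11 groups, with p-values adjusted over all 19970 genes. A gene was called by the rule of the study if its adjusted p was under 0.01 and its log2 fold change was beyond 0.58 in either direction, and a second count used an adjusted p under 0.05 alone. Members were called mainly at day 3. By the rule of the study 24 of the 79 tested members rose at day 3, where 3.76% of all genes were called higher, and none fell. At an adjusted p under 0.05 there were 32, where 6.54% of all genes passed in that direction. The median log2 fold change of the members was 0.46 and that of all genes 0.01, and 71 of the 79 members had a positive value. The counts rested partly on single libraries. Without MCAO library C the rule of the study called 6 members (Rps9, Rps20, Rpl32, Rplp0, Rpl7 and Rps26, the latter pair chosen after the values were seen), where 2.17% of all genes were called higher, and without library A it called 27 (5.44% of all genes). They also depended on the scaling and on the shared fit. Scaled to the spike-ins, the median was 0.22 beside a median of all genes of -0.22, 11 members passed at 0.05 (4.3% of all genes did) and none by the rule of the study (2.32%), and in a fit of the day 3 groups alone, where 1.93% of all genes were called, 4 members were called by that rule (Rpl32, Rps20 and, chosen after the values were seen, Rpl7 and Rpl11).

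**Figure D3:**
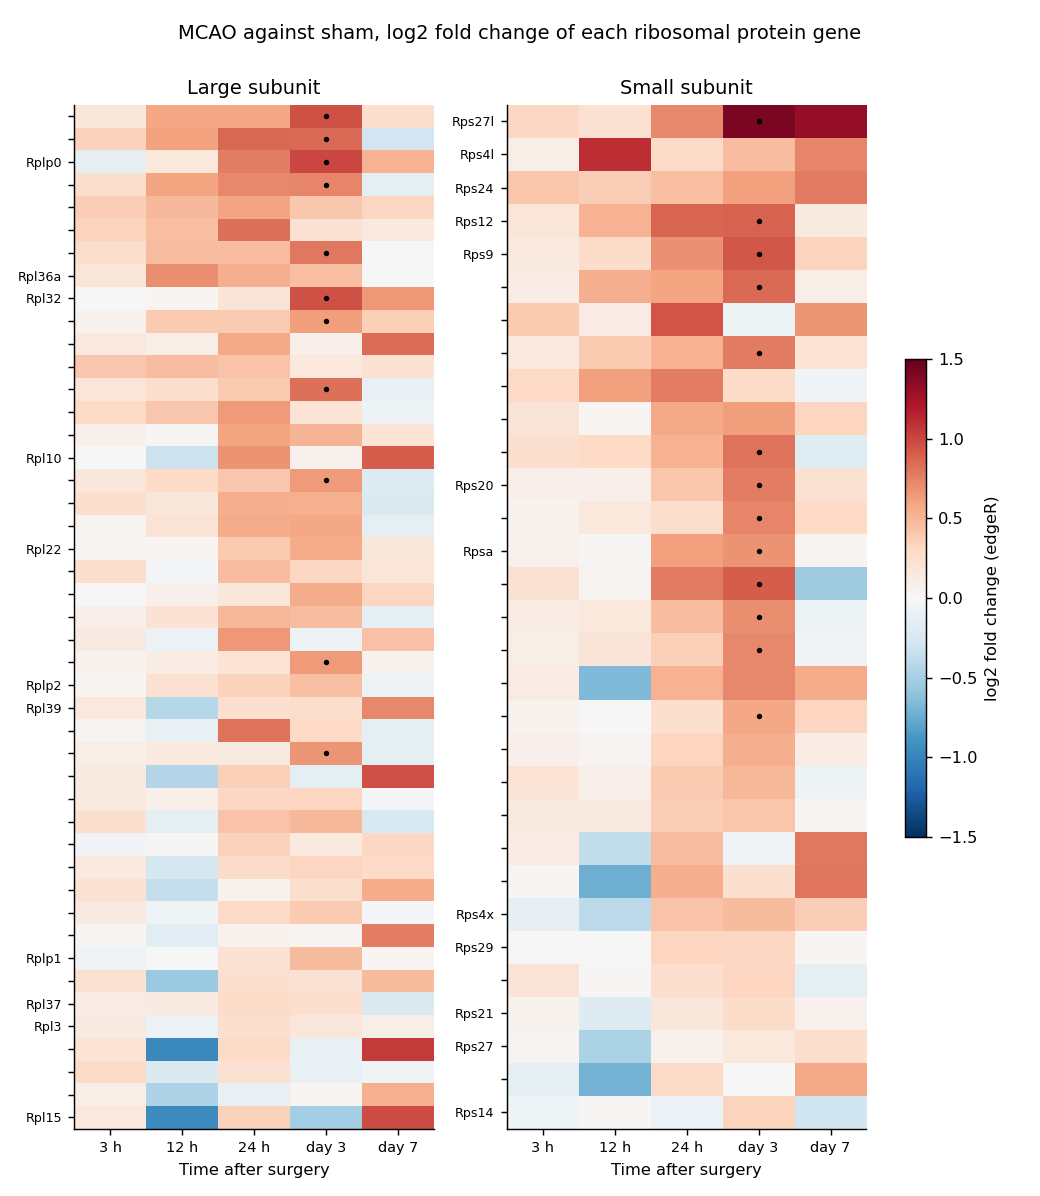
Difference between MCAO and sham (log2 fold change, colour) at the 5 times for the 76 members above 5 CPM, ordered by the mean difference over the times, with labels for members described in the text. Dots mark members called by the rule of the study at day 3; the colours are most often positive at 24 h and day 3.

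Among the small-subunit proteins, 13 of 32 tested members were called at day 3 by the rule of the study. Rps9 (ENSMUSG00000006333.14, chr7:3703993-3706897, plus strand), whose protein sits near the channel where mRNA enters, had the smallest adjusted p. Its level was 137, 126, 135 and 138 CPM in control libraries A to D, 152, 144, 134 and 142 CPM in the day 3 sham libraries and 168, 221, 411, 251 and 322 CPM in MCAO libraries A to E. All MCAO libraries lay above all sham and control libraries, with C and E the highest and A the lowest. The means were 143 ± 7.49 CPM in sham (SD, n = 4) and 275 ± 94.3 CPM in MCAO (SD, n = 5), and the log2 fold change was 0.94 (SE 0.17, adjusted p = 0.000118). Its 3′ end shared 12.6% of its 50-base windows with other annotated transcripts.

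Rps20 (ENSMUSG00000028234.6, chr4:3831334-3835665, minus strand), a protein of the small-subunit head, was measured at 226, 215, 257 and 232 CPM in sham and 317, 400.3, 463, 355 and 438 CPM in MCAO libraries A to E at day 3. The groups did not overlap, and control libraries, at 204, 240.0, 213 and 225 CPM, lay in the range of sham or below it. The log2 fold change was 0.76 (SE 0.14, adjusted p = 0.000167). No window of its 3′ end was shared with another transcript. Rps12 (ENSMUSG00000061983.6, chr10:23785183-23787275, minus strand), also of the small-subunit head, was at 268, 242, 251 and 318 CPM in sham and 286, 425, 674, 485 and 627 CPM in MCAO. Library A lay within the sham range and the other 4 above it. The log2 fold change was 0.89 (SE 0.20, adjusted p = 0.00244). All windows of its 3′ end were shared, with 23 other genes of which 21 are pseudogenes, so its reads are those that the aligner could still place at 1 locus.

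Rpsa (the small-subunit protein also known as the laminin receptor precursor) was at 130.2, 108, 158 and 178 CPM in sham and 131, 209.7, 284, 218 and 304 CPM in MCAO. MCAO library A lay within the sham range. The log2 fold change was 0.68 (SE 0.18, adjusted p = 0.00918), and the call was lost when sham library B or MCAO library E was left out. Rps24, a protein mutated in Diamond-Blackfan anaemia, was at 159.9, 178, 174 and 133 CPM in sham and 211, 193, 349, 188 and 291 CPM in MCAO at day 3. All MCAO libraries lay above all sham libraries, by a narrow margin in B and D, and the change was not called, with a log2 fold change of 0.61 (SE 0.22, adjusted p = 0.0802).

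The other called small-subunit members included Rps26, Rps28, Rps15a, Rps3, Rps19, Rps13 and Rps25, named after the values were seen, with log2 fold changes from 0.59 (Rps3) to 0.91 (Rps19). Of the most abundant small-subunit members none was called. Rps14, a protein lost in the 5q- syndrome and the second most abundant member with a mean of 1095 CPM over all libraries, was at 863, 860.3, 1021 and 1164 CPM in sham and 909, 1277, 1473, 1186 and 1299 CPM in MCAO at day 3. The groups overlapped in library A. The log2 fold change was 0.33 (SE 0.16, adjusted p = 0.224). Rps21 and Rps29, with means of 965 and 691 CPM over all libraries, had log2 fold changes of 0.28 and 0.31, neither of which was called. Rps6, the substrate of the S6 kinases, had 340 counts over all libraries, and its log2 fold change of -0.69 was the lowest among the members at day 3, with an adjusted p of 0.605. It was chosen after the values were seen, and 72.8% of its 3′ windows were shared with other transcripts.

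Among the large-subunit proteins, 11 of 47 tested members were called at day 3. Rpl32 (ENSMUSG00000057841.5, chr6:115805505-115808747, minus strand) is a core protein of the large subunit. Its level was 245, 239, 214 and 256 CPM in control, 239.7, 250.2, 283 and 202 CPM in sham and 360.3, 424, 606, 379 and 584 CPM in MCAO libraries A to E. MCAO and sham did not overlap, and C and E were again the highest. The means were 244 ± 33.3 CPM (SD, n = 4) and 471 ± 116 CPM (SD, n = 5). The log2 fold change was 0.95 (SE 0.18, adjusted p = 0.000182). Rpl22, whose product also binds structured RNAs, was at 148, 162, 151 and 175 CPM in sham and 157, 257, 291, 206 and 260.4 CPM in MCAO. Library A overlapped with sham, and the log2 fold change was 0.56 (SE 0.13, adjusted p = 0.00210), short of the fold required by the rule of the study. The other called large-subunit members, likewise named after the values were seen, included Rpl7, Rpl18, Rpl11, Rpl13, Rpl23a, Rpl8, Rpl27 and Rpl14, with log2 fold changes from 0.62 (Rpl27) to 0.96 (Rpl18). Rpl27a, Rpl31, Rpl12 and Rps10 were among those that passed at 0.05 only, with 0.41 (Rps10) to 0.58 (Rpl12). Rpl37, with a mean of 836 CPM over all libraries, had a log2 fold change of 0.25 and was not called. Rpl15 was at 32.3, 37.8, 43.9 and 45.9 CPM in sham and 40.6, 22.1, 27.0, 24.9 and 26.0 CPM in MCAO. In MCAO it was lower than in every sham library in B to E and within their range in A, and the log2 fold change was -0.51 (SE 0.40, adjusted p = 0.499).

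The stalk proteins were all higher on average at day 3. Rplp0 (ENSMUSG00000067274.10, chr5:115559467-115563727, plus strand), which anchors the stalk, was at 92.1, 99.5, 90.8 and 92.8 CPM in control, 83.8, 99.7, 82.2 and 128 CPM in sham and 102, 157, 264, 196 and 267 CPM in MCAO. MCAO library A lay within the sham range, while the other 4 lay above it. The means were 98.4 ± 21.2 CPM (SD, n = 4) and 197 ± 70.6 CPM (SD, n = 5), and the log2 fold change was 1.01 (SE 0.21, adjusted p = 0.000809). Rplp1 (ENSMUSG00000007892.7, chr9:61913284-61914542, minus strand), the most abundant member with a mean of 1271 CPM over all libraries, was at 1023, 1080.5, 1226 and 1229 CPM in sham and 1277, 1509.7, 1805, 1617 and 1717 CPM in MCAO. The groups did not overlap, and the log2 fold change was 0.48 (SE 0.13, adjusted p = 0.0167), which passed at 0.05 but not the rule of the study. Rplp2 was at 251, 271, 305 and 382 CPM in sham and 263, 387, 524, 438 and 451 CPM in MCAO. Its groups overlapped, and it was not called, with a log2 fold change of 0.45 (SE 0.19, adjusted p = 0.144). The fold differences were thus 2.01 for Rplp0, 1.39 for Rplp1 and 1.37 for Rplp2, and the difference between these genes was not tested.

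**Figure D4:**
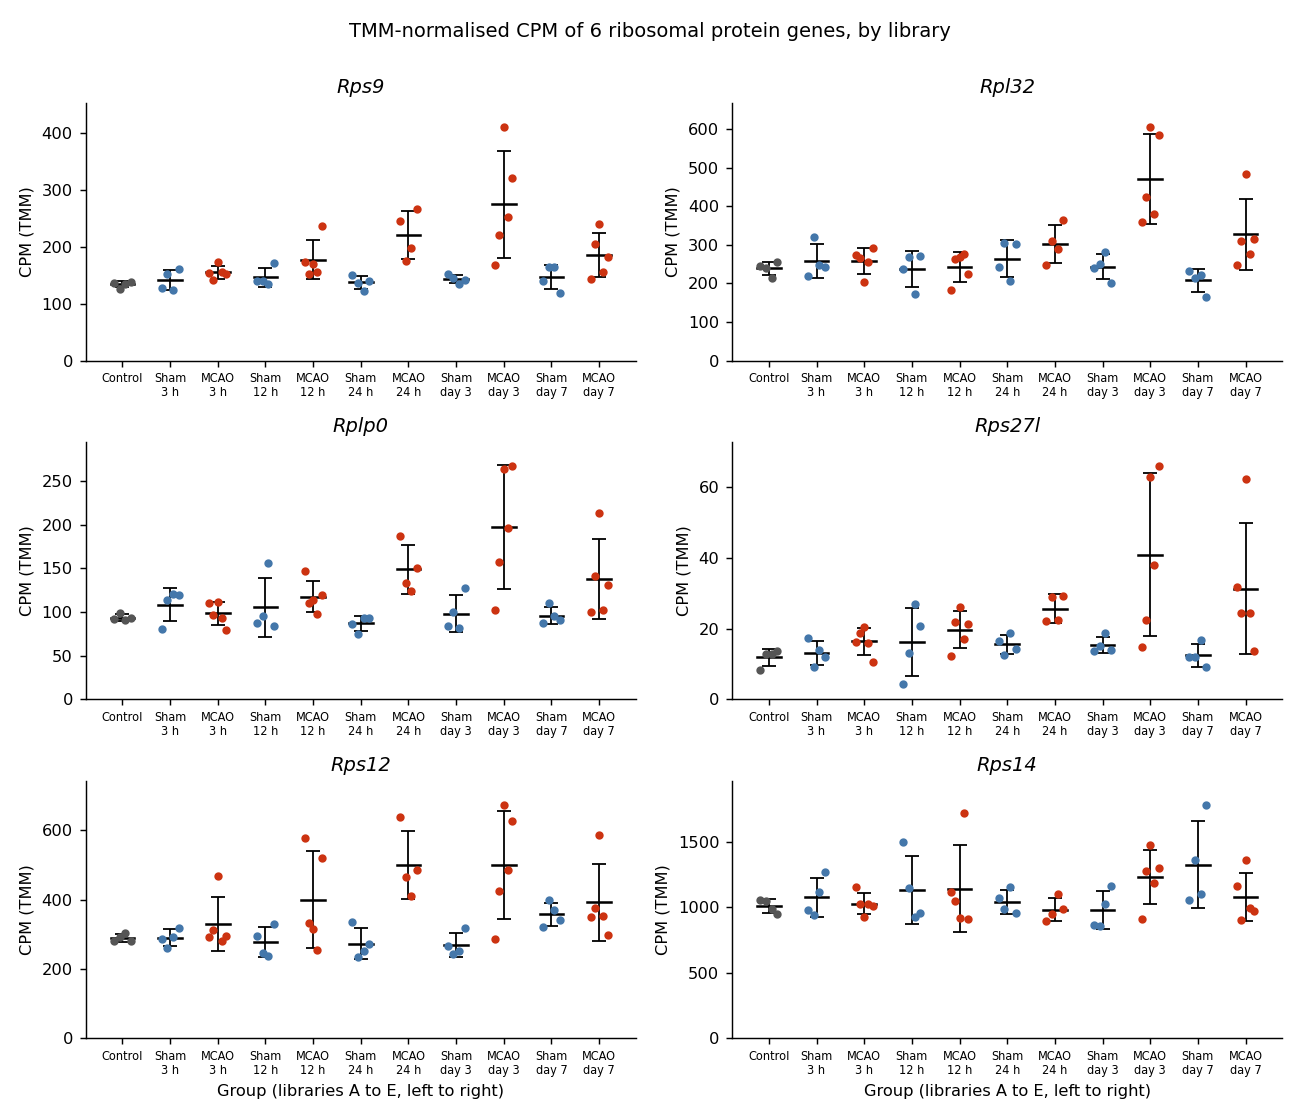
Levels (CPM) of Rps9, Rpl32, Rplp0, Rps27l, Rps12 and Rps14 in the libraries of all 11 groups. Points are libraries in order of their letters and lines are the group mean and SD. The first 5 genes peak in MCAO at day 3 or 24 h, while Rps14 stays between 860.3 and 1782 CPM over all libraries.

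The paralogous members covered a wide range of levels. Rps27l (ENSMUSG00000036781.13, chr9:66946086-66949516, plus strand), a p53-inducible paralogue of Rps27, was the member with the largest mean difference over the times among those with enough counts. At day 3 it was at 13.8, 15.2, 18.7 and 14.1 CPM in sham and 14.9, 22.6, 62.9, 38.1 and 66.1 CPM in MCAO libraries A to E. C and E were highest, D intermediate, and A within the sham range. The means were 15.4 ± 2.25 CPM (SD, n = 4) and 40.9 ± 23.1 CPM (SD, n = 5), and the log2 fold change was 1.41 (SE 0.35, adjusted p = 0.00549). Its parent Rps27 was at 139, 152, 176 and 218 CPM in sham and 173, 187, 228, 160.2 and 204 CPM in MCAO. These groups overlapped, and the log2 fold change was 0.15 (SE 0.21, adjusted p = 0.719). No 3′ window of Rps27l was shared with another transcript. All windows of Rps27 were shared, with 6 other genes of which 5 are pseudogenes. The reads of Rps27 are therefore those that the aligner could still place at 1 locus. The difference between the paralogues was not tested.

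Rps4l (ENSMUSG00000063171.4, chr6:148354656-148355598, plus strand), annotated as a transcribed processed pseudogene and related to Rps4x, had a mean level of 27.4 CPM over all libraries, and its levels overlapped between groups at day 3, with a log2 fold change of 0.46 (SE 0.36, adjusted p = 0.490). Rps4x had means of 56.7 ± 13.6 CPM in sham (SD, n = 4) and 78.8 ± 13.3 CPM in MCAO (SD, n = 5) at day 3 and was not called. The muscle paralogue Rpl3l had 37 counts in 20 libraries and the testis paralogues Rpl39l and Rpl10l 18 counts in 10 libraries and 1 count in 1 library. Their parents had 24117 (Rpl3), 8845 (Rpl39) and 3959 (Rpl10) counts, and none of these 3 was called at any time. Rpl22l1, the paralogue of Rpl22 that the naming rule leaves out, had means of 83.4 CPM in sham and 80.4 CPM in MCAO at day 3, and its log2 fold change was -0.05 with an adjusted p of 0.947.

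Calls at day 3 were counted by level. Among members above 100 CPM, 22 of 53 were called by the rule of the study with a median log2 fold change of 0.56, while among those at 100 CPM or less 2 of 26 were called with a median of 0.15. Members whose levels varied little within groups (SD under 0.3 on the log2 scale) were called in 16 of 35 cases, and those with an SD over 0.5 in 1 of 18. The test weighs a difference against this spread, so that fewer calls at a larger SD follow from the test itself. Level was tied to spread, so the counts by level share this limit. The order was the other way at day 7, where the medians were 0.028 above 100 CPM and 0.65 at or below it, and 0.0028 for an SD under 0.3 and 0.76 for one over 0.5. These day 7 medians include sham library D, which stood apart with many members low, and are not given without it. No difference between these subsets was tested. The 1249 other genes at or above the median level of the members, a set chosen after the values were seen, had a median log2 fold change of -0.18, and 24 of them were called higher. At day 3, members with a pyrimidine tract within 15 bases of a RefSeq start had a median of 0.46, and those with a start but no such tract 0.48. This split rests on a match of letters and does not separate TOP mRNAs from others. Members whose last 200 bases shared no window with another transcript had a median of 0.58 over 25 genes, and those with a shared window 0.45 over 54 genes. Over the 76 members above 5 CPM the Spearman rho of within-group spread was 0.07 with sharing and -0.75 with level, as a description across genes measured in the same libraries.

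Set against control cortex, the MCAO libraries of day 3 gave a like result, though the comparison uses the same MCAO libraries. By the rule of the study 11 members were called higher, where 2.81% of all genes were, and 9 of the 11 were also called against sham. Rps9 had a log2 fold change of 1.03 with an adjusted p of 4.96e-05, Rplp0 of 1.07 and Rpl32 of 0.98. No library overlap between MCAO and sham at day 3 was seen in 25 of the 79 members, where 4.33% of all genes had every MCAO library above every sham library.

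Markers of other cell types moved in the same libraries. Of 6 microglial markers 4 were called higher at day 3, among them Csf1r and Cx3cr1 (P2ry12, with a log2 fold change of 0.57, was not), and their summed level was 256 to 356 CPM over the sham libraries and 589.9 to 2152 CPM over the MCAO libraries. Markers of peripheral myeloid cells (3 of 5), granulocytes (3 of 6), fibroblasts (3 of 5), proliferating cells (3 of 4), endothelium (2 of 6), astrocytes (2 of 6) and erythroid cells (2 of 3) were also called higher, as counted among the tested markers. The sums of fibroblast markers were 60.9 to 121 CPM in sham and 72.8 to 1305 CPM in MCAO, and those of granulocyte markers 2.34 to 4.35 and 7.47 to 683 CPM. The sums of peripheral myeloid markers were 0 to 1.38 and 2.14 to 227 CPM, and those of proliferation markers 4.22 to 18.5 and 12.3 to 284 CPM. Of 7 neuronal markers 1 was called lower, and their sums were 7305 to 8559.6 CPM in sham and 4872 to 7269.6 CPM in MCAO. No marker of oligodendrocytes, their precursors, mural cells or choroid plexus was called, and the T cell genes Cd3e, Cd3d and Cd8a had 3, 9 and 1 counts over all libraries. Trbc2, the fourth gene of the T cell list and the one that was tested, had 1979 counts and a log2 fold change of -0.46 at day 3 (adjusted p = 0.661). It was called lower at day 7 (-3.69, adjusted p = 0.000263).

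Within the MCAO libraries of day 3 the members' share of counts and the microglial sum had the same order, C, E, D, B and A from highest to lowest. In that order the sums were 2152, 1907, 1408, 1118 and 589.9 CPM. At day 7 the highest library was C for both measures and the other libraries were ordered differently, and at 24 h library A led in the share and library D in the markers. The order at day 3 was not particular to microglia. Marker sums of peripheral myeloid cells, granulocytes and endothelium also had MCAO libraries C and E highest and A lowest. Neuronal sums had A highest and C and E lowest, and those of astrocytes and oligodendrocytes had other orders. The part of these cell types in the level of the members was not tested.

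**Figure D5:**
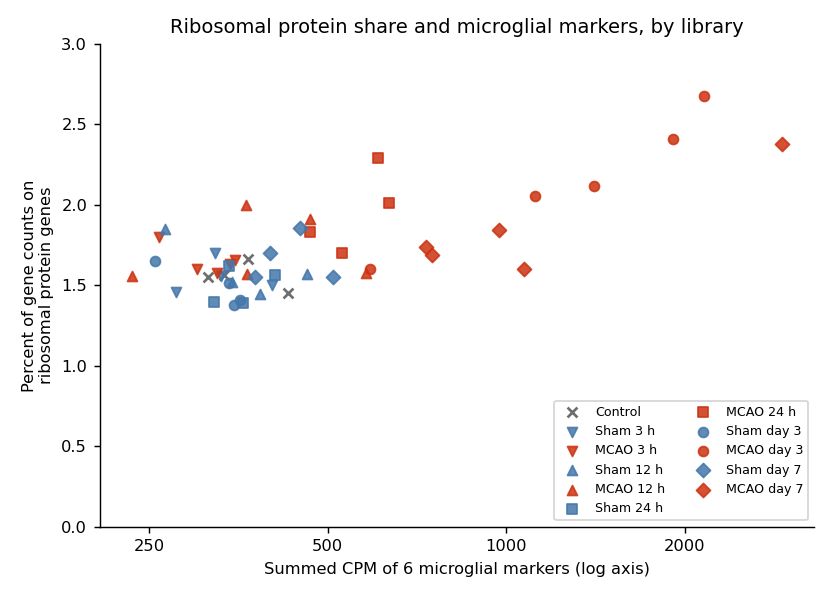
Share of gene counts taken by the 82 members (percent, vertical axis) against the summed level of 6 microglial markers (CPM, logarithmic horizontal axis) in each library. Each point is a library; the day 3 MCAO libraries run from 1.60% at 589.9 CPM to 2.68% at 2152 CPM, and day 7 library C has the highest marker sum of all.

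At 24 h the members had mostly positive differences, as at day 3, but none passed either threshold. edgeR called 0 members, where 0.0801% of all genes were called higher by the rule of the study and 0.2% at an adjusted p under 0.05. At an unadjusted p under 0.05 there were 33 members, beside 1757 of all 19970 genes (8.8%), and DESeq2 called 4 members at 0.05 (among them Rps12, Rps9 and, chosen after the values were seen, Rpl13) and 0 by the rule of the study, where 0.376% of all genes passed upward at 0.05. Scaled to the spike-ins, which moved the median of all genes up by 0.12, 9 passed at 0.05 and 3 of them by the rule of the study, where 0.536% and 0.185% of all genes did. The median log2 fold change of the members was 0.40 and that of all genes 0.02, and 76 of the 79 values were positive. In 25 members every MCAO library lay above every sham library, where 3.76% of all genes had that pattern, and 12 of these were also among the 25 of day 3. Rps12 was at 336, 234, 251 and 272 CPM in sham and 637, 466, 411 and 485 CPM in MCAO libraries A to D. The groups did not overlap, and the log2 fold change was 0.87 (SE 0.21, adjusted p = 0.0540). Rps9 was at 149.8, 137, 123 and 140.0 CPM in sham and 246, 175, 197 and 266 CPM in MCAO, again without overlap, with a log2 fold change of 0.68 (SE 0.18, adjusted p = 0.0852). Rplp0 was at 86.5, 75.2, 93.3 and 93.3 CPM in sham and 187, 133, 125 and 150.4 CPM in MCAO. The groups did not overlap either, and the log2 fold change was 0.77 (SE 0.22, adjusted p = 0.145). Rps27l was at 16.6, 12.6, 18.9 and 14.2 CPM in sham and 22.1, 29.0, 22.5 and 29.3 CPM in MCAO, a narrow separation that was not called, with a log2 fold change of 0.72 (SE 0.37, adjusted p = 0.575). Rpl32 and Rps14, in contrast, had log2 fold changes of 0.20 and -0.084. Microglial marker sums at 24 h were 321 to 408 CPM in sham and 466 to 635 CPM in MCAO. The sums were also apart without overlap for markers of granulocytes (4.72 to 8.22 CPM in sham and 35.3 to 72.2 CPM in MCAO), peripheral myeloid cells (0 to 1.05 and 8.88 to 40.4 CPM) and fibroblasts (48.8 to 83.9 and 104 to 202 CPM). Neuronal sums were 6839 to 8541 CPM in sham and 5754 to 7392 CPM in MCAO and overlapped. Of the markers tested, the astrocyte gene Gfap was called at 24 h by the rule of the study, with a log2 fold change of 3.16 (adjusted p = 2.16e-06).

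At day 7 few members passed, and 1 of these, Rps24, had not passed at day 3. None was called by the rule of the study, where 2.07% of all genes were called higher, while DESeq2 called 3 by that rule, where 3.07% of all genes were. An unadjusted p under 0.05 was seen in 17 of 79 members and in 23.5% of all genes. At an adjusted p under 0.05 the genes Rpl32, Rps27l and Rps24 passed, where 5.26% of all genes did, so the members' share of 3 in 79 was below that of all genes. Rpl32 was at 233, 215, 221 and 166 CPM in sham and 248, 309.9, 485, 277 and 314 CPM in MCAO libraries A to E. The groups did not overlap, C was far above the rest, and the log2 fold change was 0.65 (SE 0.18, adjusted p = 0.0130). Rps27l was at 12.0, 12.1, 16.9 and 9.12 CPM in sham and 31.7, 24.4, 62.5, 24.5 and 13.8 CPM in MCAO. Library E lay within the sham range and C was highest, and the log2 fold change was 1.32 (SE 0.36, adjusted p = 0.0144). Rps24 (ENSMUSG00000025290.16, chr14:24487125-24496959, plus strand) was at 129, 112, 174 and 71.2 CPM in sham and 209, 174, 303, 171 and 187 CPM in MCAO. Libraries B and D did not exceed sham library C, the highest of the sham group, and the log2 fold change was 0.78 (SE 0.23, adjusted p = 0.0207).

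These calls at day 7 rested on single libraries. Sham library D, one of the 5 that stood apart, was the lowest in all 3 genes, and MCAO library C the highest. Rpl32 and Rps27l lost their calls when either was left out, and Rps24 when sham library B, sham library D or MCAO library C was. Without the 5 libraries the log2 fold changes were 0.55 for Rpl32, 1.19 for Rps27l and 0.59 for Rps24, none passed, and Rps6 was the single member called at 0.05 (chosen after the values were seen), where 2.83% of all genes were. Of the members that had been high at day 3, Rps9 was at 140.1, 164, 164 and 119 CPM in sham and 144, 204, 239, 156 and 183 CPM in MCAO. The groups overlapped and the log2 fold change was 0.34 (SE 0.17, adjusted p = 0.214). Rps12 had a log2 fold change of 0.13, and Rps14 had one of -0.30 with sham values of 1058, 1363, 1098 and 1782 CPM and MCAO values of 1165, 906, 1358, 997 and 968 CPM, which overlapped. Neither was called. Sham library D was the highest for Rps14, and without the 5 libraries its log2 fold change was -0.12, that of Rps9 0.25 and that of Rps12 0.11. The median over the members was 0.18 and over all genes 0.06, and the median of the members without the 5 libraries was 0.14. Microglial marker sums were 377 to 511 CPM in sham and 732 to 2915 CPM in MCAO. Fibroblast sums were 40.1 to 77.4 CPM in sham and 153 to 5453 CPM in MCAO, with library C the highest. By the rule of the study 4 of 5 fibroblast markers, 3 of 6 microglial, 3 of 6 astrocyte, 3 of 4 proliferation, 2 of 3 oligodendrocyte precursor, 2 of 3 erythroid and 1 of 5 peripheral myeloid markers were called higher at day 7, as were 1 of 6 oligodendrocyte and 1 of 4 mural markers, and 1 of 7 neuronal markers was called lower. Their part in the members' levels was not tested.

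At 3 h and 12 h the median differences were small. At 3 h edgeR and DESeq2 called none by either rule, no member had an unadjusted p under 0.05, and 0.0901% and 0.23% of all genes were called higher by the rule of the study and at 0.05. The highest log2 fold change was that of Rps24, 0.42, with an adjusted p of 0.623. The median was 0.13 and that of all genes 0, and 69 of the 79 values (87.3%) were positive, against 49.5% of all genes. At 12 h none was called by the rule of the study (0.346% of all genes were called higher), 18 of 79 had an unadjusted p under 0.05 in either direction, where 14.6% of all genes did, and DESeq2 called none by that rule. The median was 0.07 and turned to -0.06 when the libraries were scaled to the spike-ins. Of the 79 values, 53 were positive. Without the 5 libraries that stood apart the median was 0.18, 59 values were positive and 7 had an unadjusted p under 0.05. At an adjusted p under 0.05 Rpl36a alone passed, where 0.986% of all genes did. Rpl36a (ENSMUSG00000079435.9, chrX:134585654-134588062, plus strand), a large-subunit protein near the tRNA exit site, was at 126, 135, 126 and 149 CPM in sham and 295, 166, 165, 149 and 311 CPM in MCAO libraries A to E. A and E were highest, D barely exceeded the highest sham library, and the log2 fold change was 0.70 (SE 0.19, adjusted p = 0.0448). Without the 5 libraries that stood apart, of which 4 are from this time, its log2 fold change was 0.56 and it did not pass, where 0.0609% of all genes did. All windows of its 3′ end were shared with other transcripts. Rps4l was at 16.7, 15.1, 14.4 and 23.4 CPM in sham and 42.3, 47.6, 28.7, 22.4 and 46.5 CPM in MCAO at 12 h. Library D lay within the sham range, and the change was not called, with a log2 fold change of 1.10 (SE 0.37, adjusted p = 0.122). It was 1.02 without the 5 libraries, and not called. Rpl15 was at 7.82, 12.5, 90.1 and 26.9 CPM in sham and 9.64, 27.7, 17.2, 8.24 and 28.6 CPM in MCAO, with sham library C far above the rest. It was not called, with a log2 fold change of -0.96 (SE 0.42, adjusted p = 0.265). Sham library C is one of the 5, and without them the value was -0.16. Of the cell type markers none was called by the rule of the study at 3 h. At 12 h, 2 of 6 granulocyte, 1 of 6 astrocyte and 1 of 3 erythroid markers were called higher, and 1 of 6 microglial markers lower. Granulocyte sums at 12 h were 2.22 to 6.23 CPM in sham and 12.2 to 1724 CPM in MCAO, with library E, one of those that stood apart, the highest. The part of these cells in the members' levels was not tested.

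The mean of the MCAO groups was compared with the mean of the sham groups over the 5 times. At an adjusted p under 0.05, 36 members rose and none fell, where 9.18% of all genes passed in the upward direction, and 77 of 79 values were positive. The median log2 fold change was 0.24, against 0.03 for all genes. By the rule of the study Rps27l alone was called, where 4.51% of all genes were called higher. Rps27l had a log2 fold change of 0.80 (SE 0.16, adjusted p = 0.000293). Rps9 had the smallest adjusted p among the members, with a log2 fold change of 0.47 (SE 0.076, adjusted p = 6.54e-06). Rps24 had a log2 fold change of 0.53 (SE 0.10, adjusted p = 0.000149), and Rps12 and Rps4l had log2 fold changes of 0.52 and 0.53. Rps4l was no longer called without the 5 libraries that stood apart. At the other end stood Rps14, Rpl15 and Rps27, with log2 fold changes of -0.02, 0.0052 and 0.0094, none called and each with a sign that changed with the processing.

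Sham surgery did not displace the members detectably. In the mean of the sham groups against control, edgeR and DESeq2 called 0 members by either rule, where 0% of all genes were called higher by the rule of the study and 0% at 0.05. At an unadjusted p under 0.05 there were 2 members beside 955 of all genes, and the median log2 fold change was -0.04. For Rps9 the log2 fold change was 0.092 with a 95% interval from -0.18 to 0.36, and for Rplp0 it was 0.077 with an interval from -0.26 to 0.41.

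Whether the MCAO effect changed over time was tested as the mean effect at day 3 and day 7 minus that at 3 h and 12 h. Rpl32 was called by the rule of the study, where 0.836% of all genes were called higher, and Rpl32 and Rplp0 passed at 0.05, where 2.43% of all genes did. These counts, 1 and 2 of 79 tested members, were near the shares of all genes. For Rpl32 the MCAO libraries A to E were at 272, 267, 203, 254 and 293 CPM at 3 h and 183, 264, 269, 276 and 223 CPM at 12 h. The sham libraries were at 218, 320.0, 246 and 244 CPM and 237, 269, 173 and 271 CPM at these times. The groups overlapped early and separated at day 3 and day 7, and the log2 fold change was 0.78 (SE 0.17, adjusted p = 0.00513). For Rplp0 the MCAO libraries were at 111, 96.8, 112, 93.5 and 79.3 CPM at 3 h and 147, 110.2, 114, 98.2 and 119.7 CPM at 12 h. The sham libraries were at 80.7, 113, 121 and 119 and 87.1, 95.9, 156 and 83.7 CPM, and at day 7 sham was at 87.5, 110.1, 95.9 and 90.8 CPM and MCAO at 100.4, 141, 214, 103 and 131 CPM. Sham 12 h library C, one of those that stood apart, was the highest early sham library. The log2 fold change was 0.75 (SE 0.21, adjusted p = 0.0257). Without the 5 libraries the log2 fold change was 0.84 for Rpl32, which was still called, and 0.59 for Rplp0, which was not.

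Over the whole course, 38 of the 76 members above 5 CPM had their highest group mean in MCAO at day 3, 22 in MCAO at 24 h and 7 in MCAO at day 7. The difference between MCAO and sham was largest at day 3 in 41 members, at 24 h in 16 and at day 7 in 15. It was positive at all 5 times in 25 members, and 55 had a lower value at day 7 than at day 3. Across these 76 genes the differences at 24 h and day 3 had a Pearson r of 0.29, and those at day 3 and day 7 an r of -0.29. These values describe genes that were measured in the same libraries at each time and carry no test. Those of 12 h and day 7 include the 5 libraries that stood apart, and these counts and correlations are not given without them.

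Other genes of the translation pathway, from lists set by function, were counted in the same fit. Of 8 ribosomal proteins that the naming rule leaves out, 1 was called at day 3 by the rule of the study, Rack1, a scaffold on the small-subunit head, which had mean levels of 190.1 CPM in sham and 372 CPM in MCAO and a log2 fold change of 0.97. Fau, whose ubiquitin-like fusion protein yields a small-subunit protein, had means of 112.5 and 145 CPM and was not called (log2 fold change 0.36). Of 11 elongation and termination factors none was called by the rule of the study and 2 passed at 0.05. They included Eef1a1, which delivers aminoacyl-tRNA, with means of 86.2 CPM in sham and 186 CPM in MCAO and a log2 fold change of 1.11 (adjusted p = 0.0355), and Eef1b2, its exchange factor, with 0.47. Eef2, which moves the ribosome along, had a log2 fold change of 0.41 and an adjusted p of 0.0820. Of 37 initiation factors 1 passed at 0.05 at day 3, and over all times Eif2s2 (0.34), Pabpc1 (0.55) and Eif3i (0.25) had the smallest adjusted p of 5 that passed.

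Of 59 tested genes of ribosome assembly and the nucleolus, 1 was called at day 3 by the rule of the study, and 2 passed at 0.05 in the upward and 1 in the downward direction. Ddx21, a nucleolar helicase, had a log2 fold change of 0.91 (adjusted p = 0.00705), Nop2, an rRNA methyltransferase, 0.75 (adjusted p = 0.0257) and Nop58, of the small nucleolar ribonucleoproteins, 0.18 without a call. Of 12 tested hosts of small nucleolar RNAs, 1 passed at 0.05 at day 3 and 5 over all times, among them Gas5 (0.30) and Snhg1 (0.61). Of 20 tested genes of the mTOR and eIF2 pathways 2 passed at 0.05 at day 3, Eif2ak2, the double-stranded RNA kinase, with 1.70 and Eif4ebp1, the inhibitor of cap binding, with 1.39, while the median of that list was 0.03. Of 77 tested mitochondrial ribosomal proteins 1 was called by the rule of the study, Mrps6, with a log2 fold change of 1.43, and the median of the list was 0.09. Other genes with a known TOP tract had 3 of 19 passing at 0.05 and a median of 0.29. These 3 were Rack1, Eef1a1 and Eef1b2, which are already counted in the lists above. At day 3 the median of the cytosolic ribosomal protein genes, 0.46, lay above that of each of these lists. This did not hold at the other times. The hosts of small nucleolar RNAs had a median of 0.53 at 24 h and 0.30 over all times, where the members had 0.40 and 0.24. At day 7 these hosts (0.19) and the ribosomal proteins outside the naming rule (0.21) also lay above the members (0.18). The difference between lists was not tested.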

How the data were processed

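The sample labels assign 48 bulk RNA libraries to 11 groups. The authors trimmed the reads, removed mitochondrial and ribosomal sequences, aligned the rest to GRCm38 with the spike-in sequences using STAR 2.5.2b and counted reads per gene with HTSeq. The deposited files hold raw counts per gene for each library, and reads that were not unique were not counted, so that reads a member shares with a pseudogene copy are missing from its level. The deposited normalized matrix was not used. No column was without a sample.

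Genes above 10 counts over all libraries (19970) entered edgeR 4.0.16 (TMM, quasi-likelihood F-test) in R 4.3.3, in 1 fit of all groups with 8 comparisons. Spike-ins and reads without a gene stayed out. P-values were adjusted over all genes by the Benjamini-Hochberg method, the tests were two-sided, and the biological coefficient of variation was 24.9%. Library totals of 1522668 to 2826735 counts limit the precision of members below about 10 counts. Scripts were tested on simulated counts. Alternatives were DESeq2 1.42.0, other scalings and filters, a block on the replicate letter, fits of the compared groups alone, control in place of sham, and leaving out each library, for which the trended dispersions of the full fit were reused. Leaving out the 5 libraries that stood apart was added after seeing the data. No group held 2 identical libraries (82 pairs compared).

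Members and gene lists were chosen with earlier results of these data known. Named members were those called at a single time by either rule (the 3 with the smallest adjusted p where over 20 were called), the 4 highest and 4 lowest by mean difference over the times among those with at least 10 counts per library, the 5 most abundant, the paralogues with their parents, and the stalk proteins with Rpsa. From each pathway list, up to 3 genes with the smallest adjusted p over all times were named, with Fau, Rack1, Eef1a1 and Eef2. Some genes that these rules take in are counted but not reported here by name. Sharing of 3′ ends was counted as 50-base windows of the last 200 bases of a transcript that occur in another annotated gene. Figures were drawn with matplotlib 3.10.9 under Python 3.11.15.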

Additional observations from a re-analysis of the deposited data

Results flagged for a closer look

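Single libraries lay far from the others of their group in 16 of 176 group tests over 16 measures (Dixon's test at the 95% level), and chance alone flags about 1 in 20 groups. In MCAO 3 h library C, the level was 241 CPM for Rpl36a, 402 CPM for Rplp2 and 469 CPM for Rps12. Sham 3 h library C had 343 CPM for Rplp2. Sham 12 h library C, one of those that stood apart, had 156 CPM for Rplp0 and 466 CPM for Rplp2. Sham 12 h library D had 171 CPM for Rps9. At 12 h, MCAO library D had 1719 CPM for Rps14 and MCAO library E 236 CPM for Rps9, and both stood apart. At day 3, MCAO library A had 40.6 CPM for Rpl15. At day 7, MCAO library C had 485 CPM for Rpl32, 586 CPM for Rps12, 303 CPM for Rps24 and 258 CPM for Rpsa, and MCAO library A had 57.7 CPM for Rpl15. Control library A had 8.37 CPM for Rps27l.

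The MCAO effect differed between the late and the early times, by a test of the difference itself, in Rpl32 (0.78 on the log2 scale) and Rplp0 (0.75). The second did not pass without the 5 libraries that stood apart. Of 79 tested members 1 was called by the rule of the study and 2 passed at 0.05. These counts were near the shares of all genes called higher (0.836% and 2.43%).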

How the results depend on the processing

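Scaling to the spike-ins changed the most. It called 0 members by the rule of the study at day 3 and 11 at an adjusted p under 0.05, with a median of 0.22, and moved the median of all genes by -0.23, -0.11 at 12 h, 0.12 at 24 h and -0.14 in sham against control. Members stood as far above all genes as before at day 3 (0.43 against 0.45). It called 3 members at 24 h (9 at 0.05), 0 at 0.05 at 12 h, where the median became -0.063, and 0 by the rule of the study in late minus early. Of all calls, the share that was higher was 77.9% instead of 93.5% at day 3, 82.4% instead of 59.2% at day 7, 92.3% instead of 74.6% in late minus early and 64.3% instead of 81.8% at 3 h. DESeq2 called 2 members at 0.05 at 12 h, 4 at 24 h and 5 in late minus early, and 3 by the rule of the study at day 7. With filterByExpr the counts were 2, 1 and 4 at 0.05, and 1 at day 7 by the rule of the study. With no filter they were 3 at 0.05 at 24 h and 2 at day 7 by the rule of the study. Fits of the compared groups alone gave 4 members at day 3 and 0 in late minus early by the rule of the study, and 0, 3 and 1 at 0.05 at 12 h, 24 h and in late minus early. With control in place of sham, 11 were called at day 3, and at 0.05 there were 0 at 12 h, 1 at 24 h and 1 at day 7. Without the 5 libraries that stood apart there were 0 at 0.05 at 12 h, 1 at day 7 and 1 in late minus early. The causes of these changes were not tested.

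The replicate letters did not pair the libraries, since the correlation of deviations over 20 pairs of the same letter ranged from -0.31 to 0.17. With the letter as a block, 20 members were called at day 3, and at 0.05 there were 0 at 12 h and 2 at 24 h.

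Rps14, Rpl15 and Rps27, near no difference over all times, changed sign. Rps14 became 0.0051 without the 5 libraries. Rpl15 became -0.057, -0.00237, -0.016 and -0.00137 with spike-in scaling, no filter, the block and the compared groups, and Rps27 -0.059 with spike-in scaling.

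Leaving out 1 library gave 6 (without MCAO library C) to 27 members by the rule of the study at day 3 and 23 to 34 at 0.05, with medians of 0.36 to 0.55. At 3 h it gave 0 and medians of 0.091 to 0.18. At 12 h it gave 0 to 2 at 0.05 and medians of 0.024 to 0.23, and at 24 h 0 to 1 by the rule of the study, 0 to 2 at 0.05 and medians of 0.30 to 0.50. At day 7 it gave 0 to 1 by the rule of the study and 0 (without sham library D) to 5 (without sham library C) at 0.05, with medians of 0.065 to 0.26. Without MCAO library C the single call at day 7 was a fall of Rps19, chosen after the values were seen. Over all times it gave 1 to 2 and 32 to 43 members and medians of 0.22 to 0.28. In sham against control the median ranged from -0.074 to 0.0034, positive without control library B. In late minus early it gave 0 to 2 and 1 to 7 (without MCAO day 3 library A) and medians of 0.12 to 0.25. Over all times Rps14 ranged from -0.058 to 0.012, Rpl15 from -0.059 to 0.23 and Rps27 from -0.034 to 0.11. At day 3 Rps9 (0.75 to 1.07), Rps20 (0.70 to 0.83), Rpl32 (0.84 to 1.03) and Rplp0 (0.87 to 1.17) kept their calls in each of these fits.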
